A study of Mus musculus with 8 samples.

Results

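Retinoic acid genes were examined in the postnatal day 1 (P1) mouse cortex with and without the chromatin remodelling subunits BAF155 and BAF170. The set holds 9 genes picked by name: the synthesis enzymes Aldh1a1, Aldh1a2 and Aldh1a3, the binding proteins Crabp1 and Crabp2, the breakdown enzyme Cyp26b1, and the receptors Rara, Rarb and Rarg. They are 9 of the 48709 genes listed for each library, and all 9 were among the 16287 genes with enough reads to be tested in edgeR. The set was chosen because Aldh1a3 was higher in the mutant cortex in these same libraries, so every difference between the groups in these 9 genes is given as a description. Where a fit across all genes called one of them, the call is stated without a p-value and nothing is read from it.

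RNA of whole P1 cortex was sequenced in 4 control and 4 dcKO_Nex-Cre libraries, on a C57BL6/J background. The dcKO_Nex-Cre cortex carried floxed alleles of BAF155 (Smarcc1) and BAF170 (Smarcc2) that were deleted by Nex-Cre, a Cre driven from the Neurod6 (Nex) locus in newly formed projection neurons. The controls were heterozygous for both floxed alleles and carried no Cre, so the Cre allele and the deletion cannot be told apart. Interneurons, glia, vessels and meninges lie largely outside the reach of this Cre and keep both genes. The sample labels name control and mutant, and the Cre line comes from the study's methods. Nothing in the labels states that the libraries of a group came from separate animals, so p-values measure only the spread between these libraries.

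Retinoic acid is made from vitamin A (retinol) in steps. Retinol is oxidised to retinaldehyde by dehydrogenases of the RDH, DHRS and ADH families, and retinaldehyde is oxidised to retinoic acid by the ALDH1A enzymes. CRABP proteins bind retinoic acid in the cytosol, CYP26 enzymes break it down, and in the nucleus it binds RAR receptors, which pair with RXR receptors on DNA and exchange corepressors for coactivators. In the forebrain the meninges are a known source of ALDH1A2, and the striatum is known for RARB and RXRG.

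Total counts ranged from 17958641 to 35191912 per library. All 4 control libraries and dcKO_Nex-Cre libraries 1 and 2 carried lane tag 2, whereas dcKO_Nex-Cre libraries 3 and 4 carried lane tag 8, which held no control. Smarcc1 stood at 69.2% and Smarcc2 at 56.9% of the control level, and both passed edgeR's quasi-likelihood test (adjusted p = 0.0348 and 0.00267). The call of Smarcc1 was lost in 6 of the 8 fits that left out 1 library and within lane tag 2 (adjusted p = 0.0752), whereas Smarcc2 kept its call in all 8. The 9 cortical markers summed to between 1312 and 1464 CPM, a read count relative to library size, in the control and between 1271 and 1454 CPM in the dcKO_Nex-Cre libraries, with none at 0. Among them Emx1 was lower in every mutant library (log2 fold change -0.60, edgeR adjusted p = 0.0332), and Slc17a7 stood at 68.7% of the control level (edgeR adjusted p = 0.28), both named after their values were seen, as was Ppp1r1b among the striatal markers. dcKO_Nex-Cre library 2 stood apart in its markers: 13 of 14 striatal markers and 8 of 10 meningeal fibroblast markers were higher there than in the other 7 libraries. The same held for 5 of 6 endothelial markers, but for 2 of 9 cortical and 1 of 6 microglial markers. The endothelial sum was 154 CPM there and lowest, at 91.5 CPM, in control library 2. All 9 choroid plexus markers were higher there than in the other mutant libraries. Values that move with these markers are given beside the genes concerned. Mitochondrial genes took 6.87% of counts in control library 2 and 6.15% in dcKO_Nex-Cre library 4, against 2.33% to 4.24% elsewhere. By chi-square over degrees of freedom, pairs with dcKO_Nex-Cre library 4 gave 38.1 to 81.0 against 10.8 to 22.8 for other mutant pairs. Pairs with control library 2 gave 33.9 to 42.2 against 3.77 to 11.4 for other control pairs. The part of these differences in the values of the genes was not tested.

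Among the 9 genes, 1 (Aldh1a3) passed an adjusted p of 0.05 in edgeR, against 0.884% of all genes tested. The groups did not overlap in 1 of the 9, again Aldh1a3, against 8% of all genes tested. Since Aldh1a3 chose the set, nothing is read from either count. The median log2 fold change of the 9 genes was 0.15, beside 0.004 over all genes tested. CPM here are counts scaled by edgeR's TMM-normalized library size, and log2 fold changes are dcKO_Nex-Cre over control, with a standard error (SE) and a 95% interval from the same fit.

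**Figure D1:**
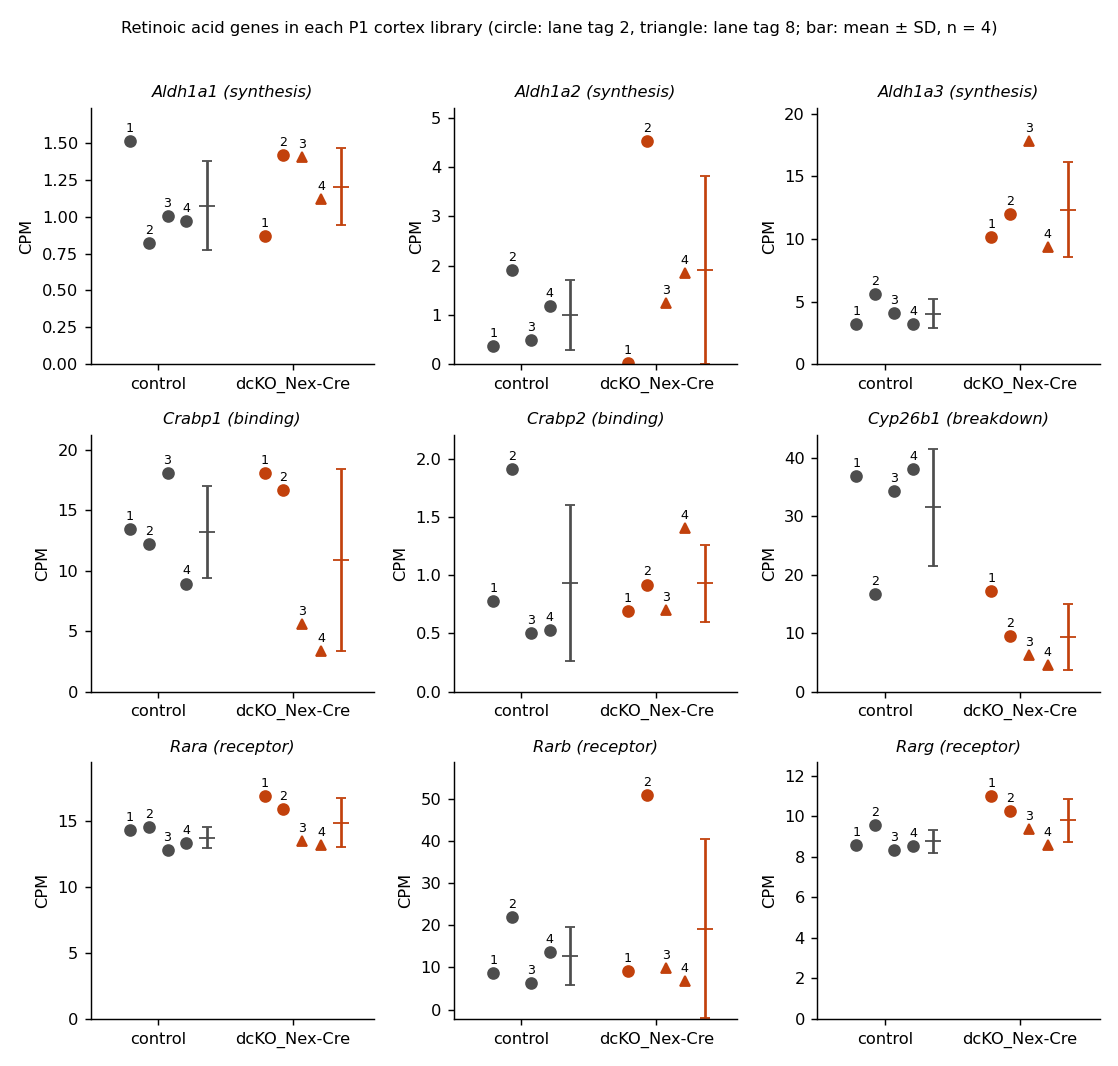
Level of each of the 9 genes in CPM (y axis) in the 4 control and 4 dcKO_Nex-Cre libraries, numbered by replicate. Circles mark lane tag 2, triangles mark lane tag 8, and a bar stands at mean ± SD. The axis starts at 0, except for Rarb, where the bar reaches below 0. Aldh1a3 is the only panel without overlap, Cyp26b1 overlaps through control 2 and dcKO_Nex-Cre 1, and Rarb and Aldh1a2 each have 1 library, dcKO_Nex-Cre 2, far above the rest.

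Aldh1a3 encodes a retinaldehyde dehydrogenase, which carries out the last step of retinoic acid synthesis. It lies on the minus strand of chromosome 7 (GRCm38, 66390890 to 66427517, ENSMUSG00000015134). The control libraries held 3.21, 5.64, 4.09 and 3.17 CPM, from 70, 103, 98 and 72 reads. The dcKO_Nex-Cre libraries held 10.1, 11.996, 17.8 and 9.37 CPM, from 350, 313, 431 and 167 reads. Every mutant library was above every control library, and the highest, library 3, belonged to lane tag 8. Control libraries averaged 4.03 ± 1.16 CPM (SD, n = 4) and mutant libraries 12.3 ± 3.80 CPM (SD, n = 4), a ratio of 3.06. The log2 fold change was 1.62 (SE 0.24, interval 1.09 to 2.15), and it was 1.47 within lane tag 2. In whole tissue, more cells with a transcript and more transcript per cell cannot be told apart.

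Aldh1a2, the retinaldehyde dehydrogenase of the meninges, was low and uneven. Its control libraries held 0.37, 1.92, 0.50 and 1.19 CPM. The dcKO_Nex-Cre libraries held 0.03, 4.52, 1.24 and 1.85 CPM, from 1, 118, 30 and 33 reads. Library 2 of the mutant group was the highest of the 8 and library 1 the lowest, so the groups overlapped across the whole control range. The log2 fold change was 0.95 with an interval of -1.05 to 2.96, which includes 0. The 10 meningeal fibroblast markers, such as collagen and decorin genes, summed to between 25.4 and 46.2 CPM in the control, to 89.5 CPM in dcKO_Nex-Cre library 2 and to 19.4 CPM in dcKO_Nex-Cre library 1, where 6 of the 10 were at their lowest. No meningeal marker was at 0 in all libraries, and their part in the Aldh1a2 values was not tested.

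Aldh1a1, the third enzyme of this step, known in the brain from midbrain dopamine neurons, was low, with 15 to 37 reads in each library. It held 1.51, 0.82, 1.001 and 0.97 CPM in the control libraries and 0.87, 1.42, 1.40 and 1.12 CPM in the dcKO_Nex-Cre libraries. Its groups overlapped, and the log2 fold change of 0.15 had an interval of -0.43 to 0.73.

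Levels of different genes were compared only per length, as CPM per kilobase of exon (CPM/kb). Aldh1a3 made up 59.7%, 54.7%, 67.6% and 48.8% of the summed Aldh1a level per kilobase in the control libraries. Its share was 92.1%, 53.2%, 82.3% and 66.0% in the dcKO_Nex-Cre libraries. The shares overlapped, with dcKO_Nex-Cre libraries 2 and 4 below the highest control. They depend on the length used, since Aldh1a1 has 4937 bases of exon but a longest transcript of 2358 bases. The place of library 4 against the highest control is therefore given for exon length only. Aldh1a2 was also high in dcKO_Nex-Cre library 2, the mutant library with the lowest share. The summed Aldh1a level itself was 1.16, 2.23, 1.31 and 1.41 CPM/kb in the control libraries. It was 2.39, 4.88, 4.68 and 3.08 CPM/kb in the dcKO_Nex-Cre libraries, all above the control. These sums, like the ratio to Cyp26b1 given later, were chosen after the values were seen.

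Crabp1 encodes a cytosolic carrier of retinoic acid and was the most abundant of the 9 genes per length in either group. The control libraries held 13.5, 12.2, 18.1 and 8.94 CPM, and the dcKO_Nex-Cre libraries 18.1, 16.7, 5.57 and 3.37 CPM. The 2 mutant libraries of lane tag 8 were below the other 6 libraries, while the 2 mutant libraries of lane tag 2 lay within the upper part of the control range. The log2 fold change was -0.25 over all libraries (interval -1.31 to 0.81) and 0.40 within lane tag 2. It was -0.03 without dcKO_Nex-Cre library 3 alone and 0.04 without dcKO_Nex-Cre library 4 alone. Lane tag 8 held no control, so its lane and other traits of these 2 libraries cannot be told apart. Crabp2, the carrier known for passing retinoic acid to RAR, was low, with 12 to 35 reads in each library. It held 0.78, 1.92, 0.50 and 0.53 CPM in the control and 0.70, 0.92, 0.70 and 1.40 CPM in the dcKO_Nex-Cre libraries, within the control range.

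Cyp26b1 encodes the cytochrome P450 that clears retinoic acid, and it lies on the minus strand of chromosome 6 (84571414 to 84593908, ENSMUSG00000063415). The control libraries held 36.9, 16.6, 34.4 and 38.2 CPM. The dcKO_Nex-Cre libraries held 17.2, 9.58, 6.31 and 4.49 CPM. Control libraries 1, 3 and 4 were at the top, control library 2 lay beside dcKO_Nex-Cre library 1, and the remaining mutant libraries were below both. Control libraries averaged 31.5 ± 10.1 CPM (SD, n = 4) and mutant libraries 9.41 ± 5.63 CPM (SD, n = 4), a ratio of 0.298. The log2 fold change was -1.72 (SE 0.40, interval -2.61 to -0.82) over all libraries and -1.22 within lane tag 2. Cyp26b1 was not among the genes called by edgeR. It was called by the Wald test of DESeq2, which called 3.03% of all genes.

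The difference in Cyp26b1 and that in Aldh1a3 ran in opposite directions. Per kilobase, Cyp26b1 stood at 9.93, 2.55, 7.25 and 10.4 times Aldh1a3 in the control libraries. The ratio was 1.47, 0.689, 0.306 and 0.413 in the dcKO_Nex-Cre libraries, so that Cyp26b1 exceeded Aldh1a3 in every control library and in 1 of 4 mutant libraries. After the group means were removed, the Pearson r of the 2 genes over the 8 libraries was -0.46, a description over few points that share library depth.

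**Figure D2:**
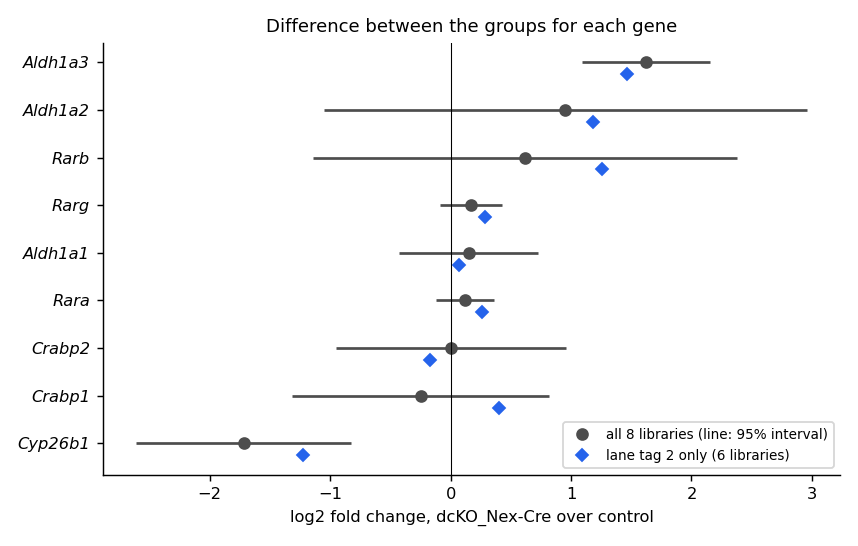
Difference between the groups for each of the 9 genes as log2 fold change of dcKO_Nex-Cre over control (x axis), from all 8 libraries with the 95% interval (grey) and from the 6 libraries of lane tag 2 (blue). The intervals of Aldh1a3 and Cyp26b1 lie on opposite sides of 0, the other 7 include 0, and Crabp1 changes sign within lane tag 2.

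Rara encodes the most widely expressed retinoic acid receptor, and it varied little. It held 14.3, 14.6, 12.8 and 13.3 CPM in the control and 16.9, 15.9, 13.5 and 13.2 CPM in the dcKO_Nex-Cre libraries. Rarg, a receptor known from skin and skeletal development, held 8.61, 9.58, 8.35 and 8.55 CPM in the control and 11.01, 10.3, 9.37 and 8.59 CPM in the dcKO_Nex-Cre libraries. In both genes the mutant libraries of lane tag 2 were above every control library and those of lane tag 8 were within the control range. The log2 fold change was 0.12 for Rara (interval -0.12 to 0.36) and 0.17 for Rarg (interval -0.09 to 0.42). Within lane tag 2 these values were 0.26 and 0.28.

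Rarb encodes the receptor that retinoic acid itself induces, through a direct repeat in its promoter that is a textbook retinoic acid response element. This promoter is shown because it holds the only such repeat found among the promoters of the set. It lies at chr14:16575427-16575726 (GRCm38.p6, RefSeq, minus strand, inside the annotated gene) and runs from 250 bases before to 50 bases after the start site, with the repeat in capitals.
Rarb promoter: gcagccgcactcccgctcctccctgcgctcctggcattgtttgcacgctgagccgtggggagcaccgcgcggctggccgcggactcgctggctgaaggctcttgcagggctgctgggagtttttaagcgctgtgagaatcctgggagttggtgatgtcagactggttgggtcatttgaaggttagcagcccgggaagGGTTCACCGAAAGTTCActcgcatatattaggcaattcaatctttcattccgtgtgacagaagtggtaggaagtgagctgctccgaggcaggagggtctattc

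The search covered direct repeats of the receptor binding core AGGTCA, of its variant AGTTCA, and of the variants GGGTCA as well as GGTTCA, in any combination, with 1, 2 or 5 bases between the copies, on both strands. RefSeq promoter windows of 300 bases were found for 7 of the 9 genes, 12 windows in all, and not for Aldh1a3 and Crabp2. The Rarb repeat, with 5 bases between its copies, lies 53 to 37 bases before the start site. Such a repeat with 5 bases is present in 0.0974% of all 32851 promoter windows, and any of the 3 spacings in 0.588%, with no window holding more than 1 spacing. Among the wider pathway genes, the promoter of Bco1 holds a repeat with 1 base between its copies. It lies on the opposite strand, 56 to 44 bases before the start. Bco1 was named after its repeat was seen, and had too few reads to be tested. The promoter of Cyp26a1, another breakdown enzyme, holds one of the same spacing as Rarb on the opposite strand, 32 to 16 bases before the start. The matched bases of Rarb and Cyp26a1 are set side by side because these genes are known to be induced by retinoic acid.
Rarb, bases matched: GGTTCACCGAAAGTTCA
Cyp26a1, bases matched: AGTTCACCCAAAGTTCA

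Rarb was uneven within each group. The control libraries held 8.65, 22.0, 6.26 and 13.7 CPM. The dcKO_Nex-Cre libraries held 9.22, 51.0, 9.82 and 6.79 CPM, from 318, 1331, 238 and 121 reads. Mutant library 2 was far above the other mutant libraries, and control library 2 was the highest control, while the other 3 mutant libraries lay within the control range. The log2 fold change was 0.62 over all libraries (interval -1.14 to 2.38), -0.53 without dcKO_Nex-Cre library 2, and -0.15 without both libraries numbered 2. The 14 striatal markers, such as dopamine receptor genes and Ppp1r1b, summed to between 240 and 336 CPM in the control, highest in control library 2. They summed to 532 CPM in dcKO_Nex-Cre library 2 and to between 220 and 292 CPM in the other mutant libraries, and 10 of the 14 were highest in library 2 of both groups. Ppp1r1b itself was higher in all 4 mutant libraries, at 46.1 to 88.3 CPM against 28.5 to 33.5 CPM in the control (log2 fold change 0.96, edgeR adjusted p = 0.04), and was the only one of the 14 that edgeR called. None was at 0 in all libraries, and their part in the Rarb values was not tested. Rarb also overlaps Top2b on the opposite strand, which had 11476.5 reads per library on average against 382.5 for Rarb, and the library kit does not mark strand.

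Rarb made up 23.7%, 42.7%, 19.5% and 34.1% of the summed RAR level per kilobase in the control libraries. Its share was 21.3%, 61.5%, 26.1% and 20.4% in the dcKO_Nex-Cre libraries. Per kilobase of exon, Rarb was therefore the most abundant RAR in library 2 of each group, and Rara in the other 6 libraries. This order depends on the length used. With the longest transcript as length, the control means were 4.07 CPM/kb for Rarb and 4.06 CPM/kb for Rara.

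**Figure D3:**
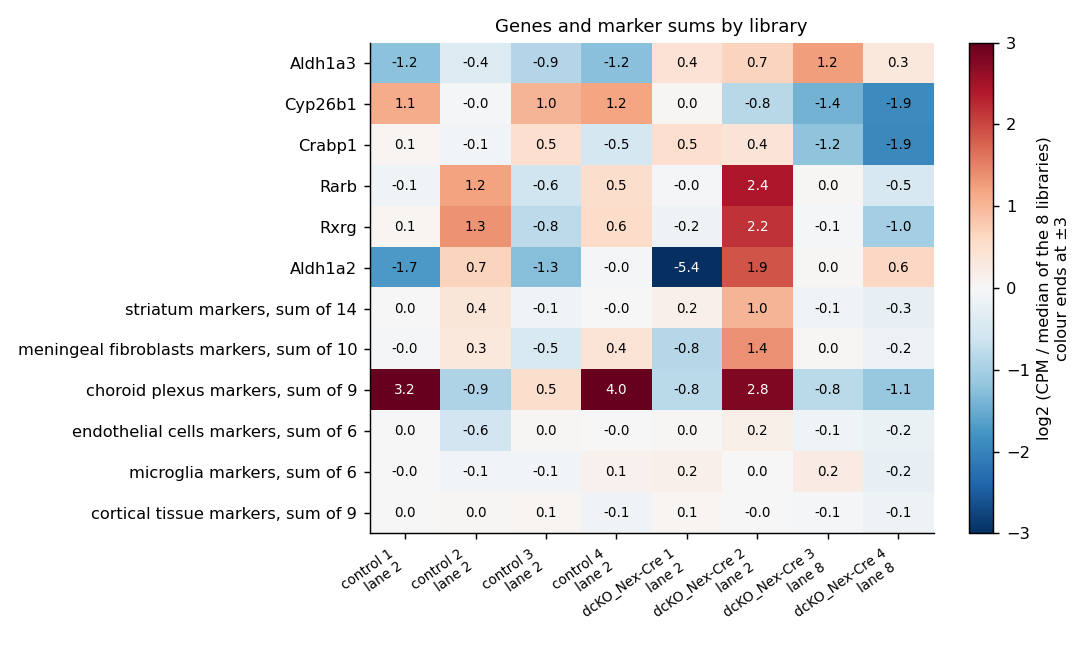
Level of 6 retinoid genes and summed level of 6 marker lists in each library, as log2 of CPM over the median of the 8 libraries (colour, ending at ±3, with the values printed). Rarb, Rxrg and Aldh1a2 reach their highest value in dcKO_Nex-Cre 2 together with the striatal, meningeal and endothelial sums, whereas Aldh1a3 is above its median in all 4 mutant libraries.

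Within the control cortex the genes were ordered by level per kilobase, a readout that the choice of genes did not use. Crabp1 led with 16.4 ± 4.74 CPM/kb (SD, n = 4), followed by Cyp26b1 with 5.89 ± 1.88 CPM/kb. The receptors came next, with Rara at 3.15 ± 0.19, Rarb at 2.40 ± 1.32 and Rarg at 2.06 ± 0.13 CPM/kb. Aldh1a3 stood at 0.872 ± 0.25, Crabp2 at 0.704 ± 0.51, Aldh1a2 at 0.439 ± 0.31 and Aldh1a1 at 0.218 ± 0.06 CPM/kb. A carrier and a breakdown enzyme were thus the most abundant transcripts and the synthesis enzymes were among the least. Of the neighbours in this order, Crabp1 and Cyp26b1 did not overlap, nor did Rarg and Aldh1a3, while the library ranges of the other 6 pairs of neighbours overlapped. In the dcKO_Nex-Cre cortex the order of the means was Crabp1, Rarb, Rara, Aldh1a3, Rarg, Cyp26b1, Aldh1a2, Crabp2 and Aldh1a1. Aldh1a3 thus moved from rank 6 to rank 4 and Cyp26b1 from rank 2 to rank 6, and the second rank of Rarb rested on dcKO_Nex-Cre library 2.

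**Figure D4:**
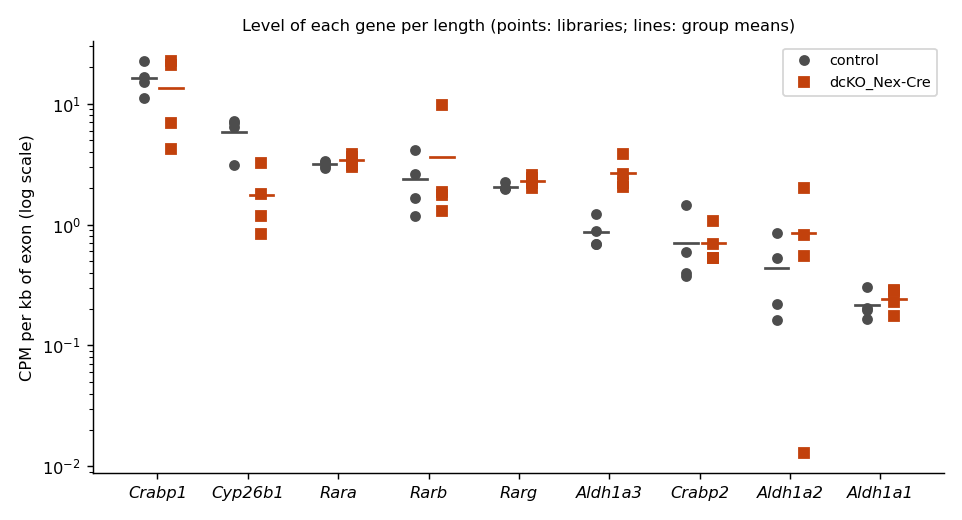
Level of the 9 genes in CPM per kilobase of exon (y axis, log scale), ordered by the control mean, with a point for each of 4 control and 4 dcKO_Nex-Cre libraries and a line at each group mean. Crabp1 leads in either group, Cyp26b1 drops from the second to the sixth place, and Aldh1a3 stands above all its control points in the mutant libraries.

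The other genes of the pathway were counted from a list of 50 genes put together by role, of which 35 were tested. edgeR called 0 of the 35, against 0.884% of all genes, and DESeq2's Wald test called 0, against 3.03% of all genes. At an unadjusted p of 0.05 in edgeR, 3 were higher and 1 was lower, against 13.6% of all genes in either direction. Their median log2 fold change was 0.08, with 24 of 35 above 0, beside 0.004 and 50.9% over all genes tested. The smallest adjusted p in edgeR was 0.223, that of Nrip1.

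Retinol uptake, transport and storage genes had a median log2 fold change of -0.10 over 7 tested of 12. Dgat1, which can esterify retinol for storage, had a log2 fold change of -0.10 (SE 0.14). Ttr, the plasma carrier of the retinol-binding protein, held 718, 14.0, 89.0 and 1305 CPM in the control and 12.4, 543, 4.83 and 2.86 CPM in the dcKO_Nex-Cre libraries. Ttr is itself one of the 9 choroid plexus markers, whose sum ran from 46.9 to 1426 CPM in the control and from 40.2 to 614 CPM in the mutant libraries. No choroid plexus marker was at 0 in all libraries, and how much of that tissue each sample held was not tested.

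Genes that interconvert retinol and retinaldehyde had a median log2 fold change of 0.09 over 10 tested of 19. Adh5, the most abundant of them and better known for clearing formaldehyde, held 212, 196, 233 and 204 CPM in the control and 242, 236, 241 and 250 CPM in the dcKO_Nex-Cre libraries. The groups of Adh5 did not overlap, and the log2 fold change of 0.20 (SE 0.08) did not pass edgeR's test (adjusted p = 0.287). The retinol dehydrogenase genes Rdh11 and Rdh13 had log2 fold changes of 0.06 (SE 0.09) and -0.08 (SE 0.08). Rdh5, a further retinol dehydrogenase and named after its values were seen, was the other of the 10 without overlap (2 of 10, against 8% of all genes tested), at 1.51 to 1.76 CPM in the control and 0.957 to 1.44 CPM in the mutant libraries (log2 fold change -0.53, edgeR adjusted p = 0.305).

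Of the remaining binding and breakdown genes, Fabp5, a carrier that can hand retinoic acid to PPARD, had a log2 fold change of -0.005 (SE 0.09). Cyp26a1, the breakdown enzyme with the repeat in its promoter, had 8 reads per library on average, a log2 fold change of 1.28 and an SE of 0.72 (edgeR adjusted p = 0.454). The partners of RAR, Rxra and Rxrb, differed by 0.14 (SE 0.11) and 0.12 (SE 0.07). Rxrg, the partner known from the striatum, held 15.02, 36.5, 8.30 and 21.1 CPM in the control and 12.9, 64.9, 13.8 and 7.07 CPM in the dcKO_Nex-Cre libraries, which placed library 2 of each group at the top, as for Rarb. Among 12 coactivators and corepressors the median log2 fold change was 0.07. Ncor1, a corepressor of RAR, differed by 0.08 (SE 0.09), Hdac3, its deacetylase partner, by 0.003 (SE 0.06), and the coactivator Ncoa1 by 0.09 (SE 0.10). Nrip1, a corepressor that retinoic acid induces, held 55.0, 59.6, 57.8 and 52.7 CPM in the control and 75.0, 55.6, 74.1 and 72.1 CPM in the dcKO_Nex-Cre libraries. In Nrip1 it was dcKO_Nex-Cre library 2 that stayed at the control level (log2 fold change 0.30, SE 0.10).

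Genes known to be induced by retinoic acid were counted from a list of 20, of which 16 were tested and 5 also stood in the pathway list. edgeR called 0 of the 16, against 0.884% of all genes, while 4 were higher and 1 was lower at an unadjusted p of 0.05, against 13.6% of all genes in either direction. DESeq2's Wald test called 3 of them, against 3.03% of all genes: Tgm2 and Bhlhe40 higher and Ret lower. The median log2 fold change was 0.20, with 12 of 16 above 0, beside 0.004 and 50.9% over all genes tested. Of the 20 listed genes, 10 were highest of all 8 libraries in dcKO_Nex-Cre library 2. The sum over all 20 was 779 CPM in that library against 503 to 634 CPM in the other libraries. Meis2 alone held 506 CPM of that sum, against 283 to 381 CPM in the other libraries. Drd2 is also one of the striatal markers that were high in dcKO_Nex-Cre library 2. The part of that library's makeup in the median was not tested. The 3 genes called by DESeq2 were named after their values were seen. Tgm2, which encodes transglutaminase 2, held 1.65, 1.48, 1.75 and 1.72 CPM in the control and 2.75, 5.10, 3.43 and 2.64 CPM in the dcKO_Nex-Cre libraries. Its groups did not overlap, and its log2 fold change of 1.07 (SE 0.23) had an adjusted p of 0.0602 in edgeR and 0.00403 in DESeq2.

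Ret, which encodes the receptor tyrosine kinase of the GDNF ligands, held 4.12, 4.38, 4.30 and 5.64 CPM in the control and 2.81, 2.99, 3.01 and 1.96 CPM in the dcKO_Nex-Cre libraries. Its log2 fold change was -0.76 (SE 0.18), in the other direction from Tgm2, with an adjusted p of 0.0845 in edgeR and 0.00866 in DESeq2. Bhlhe40, a transcriptional repressor, had a log2 fold change of 0.52 (SE 0.15) and an adjusted p of 0.154 in edgeR and 0.0404 in DESeq2. Meis2, a homeobox gene of the forebrain and the most abundant of the list, had a log2 fold change of 0.35 (SE 0.13, edgeR adjusted p = 0.263) and was highest in dcKO_Nex-Cre library 2 at 506 CPM. Rai14 differed by 0.05 (SE 0.11).

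**Figure D5:**
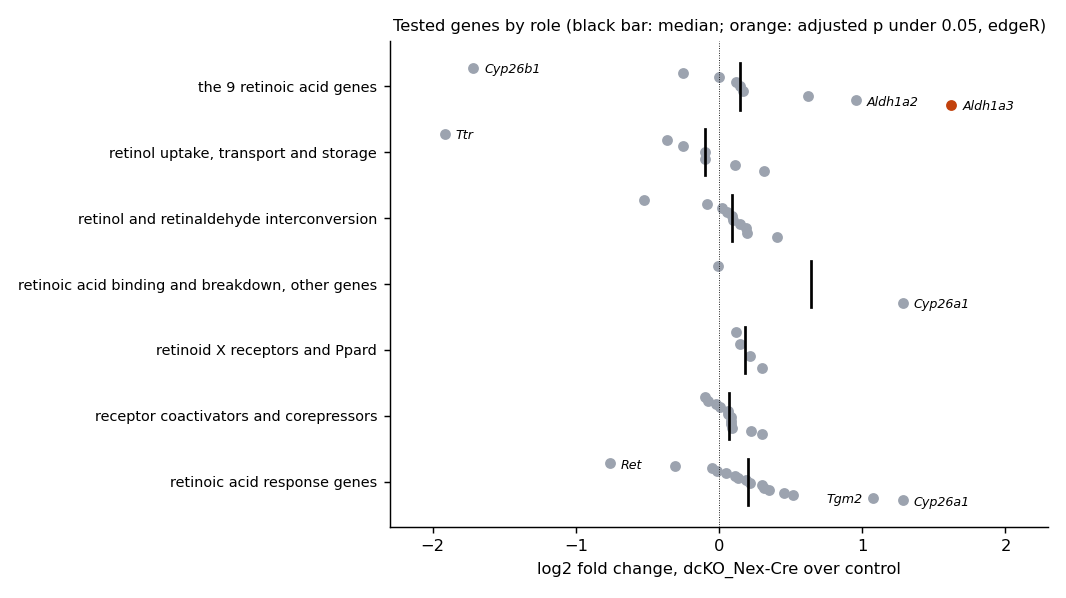
Log2 fold change of dcKO_Nex-Cre over control (x axis) for the tested genes of the set of 9 and of 6 lists by role (rows), with a point for each gene, a black bar at the median and orange for an edgeR adjusted p under 0.05. Aldh1a3 is the only orange point, and the medians of the lists lie between -0.10 and 0.64, the latter over 2 genes.

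The genes next to Aldh1a3 on chromosome 7 were compared to see whether a wider stretch differed, since position was not used to choose the set. The 3 nearest tested genes on each side were Lrrk1, Chsy1 and Selenos on the lower side and Asb7, Lins1 and Cers3 on the higher side. edgeR called 0 of the 6 (0.884% of all genes), DESeq2 called 0 (3.03%), and 0 passed an unadjusted p of 0.05 in edgeR (13.6%), so that 0 of 6 is near these background shares. Lrrk1, a kinase gene on the same minus strand, starts 2540 bases beyond the end of Aldh1a3 in the direction of transcription. Lrrk1 held 2.70, 1.48, 2.55 and 3.44 CPM in the control and 3.45, 3.87, 1.90 and 1.74 CPM in the dcKO_Nex-Cre libraries. Its log2 fold change of 0.12 had an interval of -0.56 to 0.79. The other 5, at 217048 to 315987 bases from Aldh1a3, had log2 fold changes of -0.03 (Chsy1), 0.003 (Selenos), 0.09 (Asb7), 0.06 (Lins1) and 0.22 (Cers3). The upper ends of their intervals ran up to 0.66.

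The genes most like Aldh1a3 were ranked by the Pearson r of log2 CPM after subtraction of each group's mean, over 8 libraries and among 12042 genes with at least 100 counts on average. Cenpt, a centromere gene, led with an r of 0.97 (Spearman rho 0.81). Mcee, of propionate metabolism, followed with 0.96, then the histone methyltransferase gene Nsd2 with 0.91, Folh1, the gene of glutamate carboxypeptidase II, with 0.91, and Ralgapa2 with 0.91. The points share library depth and composition, and the ranking is a description. Of the 5, edgeR called only Folh1 between the groups, against 0.884% of all genes tested, and nothing is read from this count. Folh1 held 3.39, 4.21, 4.30 and 3.30 CPM in the control and 7.83, 8.43, 12.9 and 7.07 CPM in the dcKO_Nex-Cre libraries (log2 fold change 1.25, SE 0.20, edgeR adjusted p = 0.0196). Its highest mutant library was library 3, as for Aldh1a3, a likeness that the ranking itself selects for. Of the set itself, Rarb and Rarg had an r of 0.27 and 0.23 with Aldh1a3, Rara of -0.08 and Crabp1 of -0.004, and the 3 genes with fewer counts were not ranked.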

How the data were processed

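RNA-seq of P1 cortex was analysed for 4 control and 4 dcKO_Nex-Cre samples, with 1 library per sample made with a kit that does not mark strand. For each library the authors deposited 1 table of raw read counts by Ensembl identifier, not normalized. The submitters' processing notes name mm10, and the aligner, counter, annotation and strand setting are not given in the sources used here. Of 48709 genes, 48349 were matched by identifier to GENCODE M21 (GRCm38) for position and length. Lane tags come from file names and assigned no group.

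The counts went into edgeR 4.0.16 in R 4.3.3 (filterByExpr by group, TMM, robust quasi-likelihood F test, two-sided, no covariates, Benjamini-Hochberg adjustment over all 16287 genes tested). Alternatives were DESeq2 1.42.0 (Wald test, or size factors in edgeR), no filter, at least 10 counts in every library, lane tag 2 only, the replicate number as a block, the longest transcript as length, and leaving out each library. log2 CPM used a prior count of 2. On simulated counts of the control against dcKO_Nex-Cre comparison (16287 genes), edgeR called 90 of 100 genes changed by 1 on the log2 scale, 97 of 100 changed by 2, and 14 unchanged genes. DESeq2 called 89, 96 and 25. Apart from the changed genes, the simulated libraries shared the same mean profile, with a spread set by mean level alone. They held no difference in library makeup and no spread particular to a gene. These counts therefore do not carry over to genes that were uneven between the real libraries, such as Cyp26b1, Rarb and Aldh1a2. No library was a copy of another (chi-square over degrees of freedom 3.77 or more for every pair of a group). Python 3.11.15, pandas 2.3.3 and matplotlib 3.10.9 made the tables and figures.

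The 9 genes and all lists were chosen with earlier results of these data known. The genes named are the 9, the targeted genes, the 3 most abundant of each list, list genes with an adjusted p under 0.05, the 6 neighbours and the 5 genes most like Aldh1a3. Others are said to have been named after their values were seen. An item that is withheld is not reported here.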

Additional observations from a re-analysis of the deposited data

Results flagged for a closer look

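In groups of 4 libraries, 8 of 64 had a library far from the other 3 by Dixon's criterion, which chance gives in about 1 of 20 groups. Each value here was set against the other 3 libraries of its own group. In dcKO_Nex-Cre library 2, Rarb stood at 51.0 CPM (the other 3 at 6.79 to 9.82), Rxrg at 64.9 CPM (7.07 to 13.8), Ttr at 543 CPM (2.86 to 12.4) and Nrip1 at 55.6 CPM (72.1 to 75.0). The first 3 were high and Nrip1 was low in that library. Chsy1, a neighbour of Aldh1a3, stood at 36.9 CPM in dcKO_Nex-Cre library 4 (47.0 to 48.6). In the control group, Ncoa1 stood at 144 CPM in library 4 (164 to 167), Lins1 at 30.4 CPM in library 4 (32.6 to 33.0) and Cers3 at 0.962 CPM in library 1 (1.17 to 1.20). Aldh1a3 and Cyp26b1 had no such library in either group.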

How the results depend on the processing

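Aldh1a3 had a log2 fold change of 1.39 to 1.83 over 15 alternatives and was called in 12 of them, losing the call without control library 1, 3 or 4. Cyp26b1 ranged from -2.20 to -1.22 and was called in 2 of 15, by DESeq2's Wald test and without dcKO_Nex-Cre library 1. Rarb fell to -0.53 without dcKO_Nex-Cre library 2. The number of genes called among all tested, 144, was 494 by DESeq2's Wald test, 248 within lane tag 2, 259 without a filter, 40 without both libraries numbered 2 (chosen after seeing the data), and 18 to 1278 when 1 library was left out (18 without control library 1, 1278 without dcKO_Nex-Cre library 4). The cause was not tested. The response genes called, 0, became 3 by DESeq2's Wald test, 1 (Tgm2) without a filter, and 0 to 3 when 1 library was left out (Tgm2, Ret and Meis2 without dcKO_Nex-Cre library 4). The pathway genes and the neighbours of Aldh1a3 stayed at 0 called in all 15. With the longest transcript as length, 5 of 9 genes kept their rank in the control. Aldh1a2 could not be tested where at least 10 counts were required in every library. With the replicate block, 54 genes were called, Aldh1a3 stood at 1.61, Smarcc1, Emx1 and Ppp1r1b lost their calls (adjusted p = 0.0578, 0.0817 and 0.0539, edgeR), and no other call reported here changed. Leaving out 1 library at a time, Smarcc1 was called in 2, Emx1 in 1, Ppp1r1b in 2 and Folh1 in 4 of 8 fits. Replicates of the same number correlated at -0.14 to 0.13 and 0 of 4 control libraries correlated best with their own number, so the numbers were not taken to pair the samples. Aldh1a1 and Crabp2, with at most 37 and 35 reads per library, are limited by depth.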
